A study of Homo sapiens with 6 samples.

Results

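Cells recognise foreign or misplaced RNA with a small set of sensor proteins, and 10 genes for these sensors and their adaptors were followed here among the 60498 genes of the count table. They were chosen by symbol: DDX58 (RIG-I), IFIH1 (MDA5), DHX58 (LGP2), DDX60, MAVS, EIF2AK2 (PKR), TLR3, TICAM1 (TRIF), MYD88 and ZBP1. All 10 were in the table, and 9 of them averaged 10 counts or more per library and were analysed together with the other genes that passed, 15126 in all. ZBP1, with a mean count of 2, was left out of the fits. The 9 others also averaged more than 10 counts in the control libraries alone, the lowest being TLR3 with 24.3.

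RNA came from the established ovarian cancer line SKOV3 (SK-OV-3), which carries a WT and a HAQ allele of STING1 (WT/HAQ), and from edited derivatives in which the HAQ allele (line WT/-) or the WT allele (line HAQ/-) had been removed. HAQ is a common haplotype of STING1 with several amino acid changes. The edited lines were made by CRISPR/Cas9 with a pair of guide RNAs delivered by lentivirus, and each was grown from a single cell, so that allele and clone cannot be told apart. Cells were given 2′3′-cGAMP, the cyclic dinucleotide that binds STING1, at 10 μg/mL for 30 min in permeabilized cells and then rested for 4 h, and each line also gave a control library. How the control cells were handled is not described in the sources used here. There was 1 library per line and treatment, so folds within a line carry only a 95% counting interval, and the spread between cultures was not measured.

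The libraries held between 12444822 and 17608467 counts, the smallest being the cGAMP library of WT/-. STING1, the edited gene, had 213 normalized counts in the HAQ/-, 353 in the WT/- and 669.1 in the WT/HAQ control library. All 8 epithelial and SKOV3 markers were detected, with summed levels of 72670 to 112934 normalized counts. Most of this sum was ERBB2, with 67741, 51707.5 and 69247 in the control libraries of WT/HAQ, WT/- and HAQ/-. Single markers differed between these control libraries. KRT19 had 5629, 364 and 414 normalized counts, and MSLN 66.3, 60.7 and 6.98, so the lines were not alike in every marker. In contrast, the 6 leukocyte markers summed to between 2 and 8 counts per library, with 1 of them at 0 in every library, and the 3 endothelial markers to between 11 and 42 counts. Of the epithelial markers, 3 were at least 1.5-fold lower with cGAMP in the parent line, 2 in WT/- and 0 in HAQ/-, and none passed the test over the lines. The largest of these differences was in PAX8, a transcription factor of the Müllerian lineage, with log2 fold changes of −1.78, −0.92 and −0.49 (WT/HAQ, WT/- and HAQ/-). Whether the marker differences bear on the sensor genes was not tested.

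RIG-I and MDA5 are helicases that bind double-stranded RNA in the cytoplasm and signal through MAVS on the mitochondrion, whereas LGP2 binds RNA but lacks the signalling domains of the other receptors. TLR3 reads double-stranded RNA in endosomes and signals through TICAM1, MYD88 serves most other Toll-like receptors, PKR stops translation when it binds double-stranded RNA, and ZBP1 binds Z-form nucleic acids. cGAMP does not bind these proteins: it acts on STING1, which starts transcription of type I interferon, and many of the sensor genes are known as interferon-stimulated genes (ISGs).

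After cGAMP, the transcripts of 6 sensors and of the adaptor MYD88 rose, and those of the adaptors MAVS and TICAM1 did not pass the test. DDX58, IFIH1, DHX58, DDX60, EIF2AK2, TLR3 and MYD88 were at least 1.5-fold higher in each of the 3 lines, 7 of 9 analysed members. Of all analysed genes, 12.8%, 11.9% and 6.75% were higher by this measure in WT/HAQ, WT/- and HAQ/-, and 3.11% in all 3 lines. No member was 1.5-fold lower in any line, against 12.3%, 8.77% and 5.76% of all genes. The median log2 fold change of the 9 members was 3.45, 2.71 and 2.19 (WT/HAQ, WT/- and HAQ/-), where the median of all genes was −0.01 in both WT/HAQ and HAQ/- and within 0.01 of 0 in WT/-. In bulk RNA, a larger share of responding cells and a larger response per cell cannot be told apart.

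Over the 3 lines together, edgeR's quasi-likelihood test with the line as a block called the same 7 members higher at a Benjamini-Hochberg adjusted p under 0.05 and 0 members lower. Among all analysed genes 2.27% were called higher and 0.959% lower. Without the WT/- line the test called 0 of the 15126 genes, although 1888 had an unadjusted p under 0.05. The adjusted p of the 7 members was then 0.110 to 0.278 by edgeR, with an unadjusted p of 0.000152 to 0.00425. The edgeR test without the line as a block called 4 of the 7, with IFIH1, TLR3 and MYD88 lost, while DESeq2 with the block called all 7.

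Because these genes moved together, their promoters were searched for the interferon-stimulated response element (ISRE), a short DNA site found at many interferon-inducible genes. Windows from 250 bases before to 50 bases after the RefSeq gene start (GRCh38.p14) were on hand for 8 of the 10 members, not for DHX58 and ZBP1. The ISRE core (GAAA, any 2 bases and again GAAA), read on both strands, was found in 5 of the 8 windows (IFIH1, DDX60, EIF2AK2, TLR3 and MYD88), and in 3.57% of all 35116 windows. Among the windows of genes that were at least 1.5-fold higher in all 3 lines it was found in 16.6% (77 of 464). The stretches that hold the matches are given 5′ to 3′ on the strand of the gene, with the matched bases in capitals, to show how far they lie from the RefSeq start. GENCODE 44 has transcripts that begin further upstream for DDX60 (131 bases), EIF2AK2 (542), TLR3 (245) and MYD88 (109), so that the matches of these 4 genes lie within the gene ranges of GENCODE.
IFIH1, chr2:162318808-162318863, minus strand, a pair of overlapping matches 159 to 144 bases before the start: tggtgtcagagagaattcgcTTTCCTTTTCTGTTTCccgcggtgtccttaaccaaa
IFIH1, chr2:162318685-162318725, minus strand, 21 to 12 bases before the start: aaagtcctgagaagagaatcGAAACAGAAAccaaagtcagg
DDX60, chr4:168318776-168318860, minus strand, matches that begin 88 and 53 bases before the start: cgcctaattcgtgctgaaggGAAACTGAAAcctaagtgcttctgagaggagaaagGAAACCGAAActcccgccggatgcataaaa
EIF2AK2, chr2:37156967-37156996, minus strand, across the start: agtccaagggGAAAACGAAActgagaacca
TLR3, chr4:186069142-186069171, plus strand, across the start: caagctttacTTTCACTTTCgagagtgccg
MYD88, chr3:38138580-38138629, plus strand, 61 to 52 bases before the start: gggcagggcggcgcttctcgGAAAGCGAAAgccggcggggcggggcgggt

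DDX58 had no exact match, yet its window held 4 stretches that differ from the core at 1 informative base, of which 3 overlap between 149 and 127 bases before the start. The overlapping stretches are shown for comparison with the exact matches.
DDX58, chr9:32526303-32526365, minus strand: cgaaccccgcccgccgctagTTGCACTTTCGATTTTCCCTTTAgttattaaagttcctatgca
With 1 mismatch allowed, 33.0% of all windows, 45.7% of those of the genes higher in all 3 lines and 6 of the 8 members matched. MAVS and TICAM1, the analysed members that did not pass the test, had no match at either setting. The GAS core TTCNNNGAA, from the gamma-activated site of interferon-gamma-inducible genes, was found in DDX60 (1 match), TLR3 (2 matches) and MYD88 (1 match, sharing bases with the ISRE match), and in 7.66% of all windows and 11.2% of those of the genes higher in all 3 lines. These are matches of letters and no measurement of binding.

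**Figure D1:**
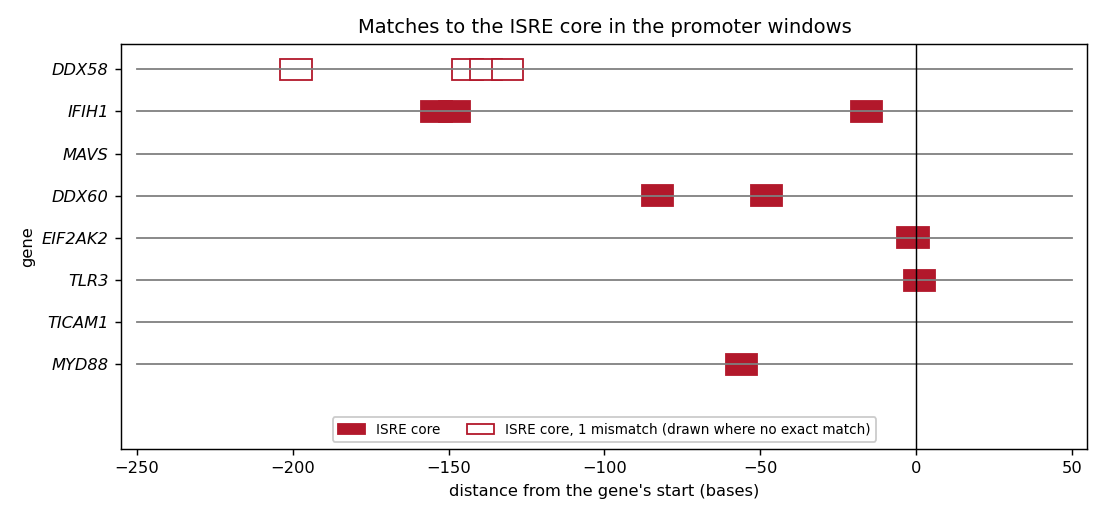
Position of ISRE core matches (filled) in the promoter windows of 8 genes, as distance in bases from the gene's start, from 250 before to 50 after. IFIH1 has 3 exact matches and DDX60 has 2, MAVS and TICAM1 have none, and open boxes show matches of DDX58 with 1 mismatch.

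IFIH1 encodes MDA5, the receptor of long double-stranded RNA, and lies on chromosome 2 from 162267074 to 162318684 on the minus strand (GRCh38, GENCODE 44). It had 105 normalized counts in the control and 10482 in the cGAMP library of WT/HAQ, 229 and 9709 in WT/-, and 69.8 and 1689 in HAQ/-. All 3 cGAMP libraries were thus above all control libraries, and that of HAQ/- was far below the other two. The fold was 24.2 (19.3 to 30.3) for HAQ/-, 42.5 (37.4 to 48.2) for WT/- and 99.7 (83.2 to 119) for the parent line WT/HAQ. Over the lines IFIH1 rose by 5.58 ± 0.42 on the log2 scale (SE, edgeR adjusted p = 0.00797), the largest change among the members. Its fold ranked 22 of 15114 genes with a fold in WT/HAQ, 33 of 15099 in WT/- and 16 of 15072 in HAQ/-.

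DDX58 encodes RIG-I, the receptor of short RNA with a 5′ triphosphate, and lies on chromosome 9 from 32455302 to 32526208. In GENCODE 44 it shares 4471 exon bases on the same strand with another protein-coding gene (ENSG00000288684) that has no row in the count table, so reads of both cannot be told apart. Its normalized counts were 156, 330.4 and 117 in the control and 9013, 9988 and 3277 in the cGAMP libraries of WT/HAQ, WT/- and HAQ/-. The groups did not overlap, and the lowest cGAMP library was 9.92-fold above the highest control library. The parent line had a fold of 57.9 (49.9 to 67.2), WT/- one of 30.2 (27.2 to 33.6) and HAQ/- one of 28.0 (23.6 to 33.3). The edgeR estimate over the lines was 5.19 ± 0.25 (log2, SE), with an adjusted p of 0.00341, and the gene ranked 13 of 15126 by p. Between WT/- and HAQ/- the log2 fold change differed by 0.11, with a counting interval that included 0 (−0.18 to 0.40).

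DHX58 encodes LGP2, which modulates RIG-I and MDA5 (chromosome 17, 42101404 to 42112714). It had 118, 145 and 114 normalized counts in the control libraries of WT/HAQ, WT/- and HAQ/-, and 1451, 1678 and 753 after cGAMP. Control levels were within 1.27-fold of each other, and HAQ/- was the lowest with cGAMP. The log2 fold change over the lines was 3.30 ± 0.20 (SE, edgeR adjusted p = 0.00543). WT/HAQ and WT/- gave folds of 12.3 (10.3 to 14.7) and 11.6 (9.82 to 13.7), a log2 difference of 0.09 (−0.26 to 0.44), against 6.59 (5.47 to 7.94) in HAQ/-.

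DDX60 is a helicase that has been described as a cofactor of the RIG-I-like receptors (chromosome 4, 168216291 to 168318883). Its control levels of 350.02, 470.3 and 373 normalized counts rose to 9585, 7136 and 3889 in WT/HAQ, WT/- and HAQ/-. The cGAMP libraries stood in the order WT/HAQ, WT/-, HAQ/-, each at least 8.27-fold above every control library. The edgeR log2 fold change was 4.02 ± 0.29 (SE, adjusted p = 0.00714). DDX60L, a near copy that lies 37852 bases away on the same strand, was also higher, by 3.49, 3.09 and 2.67 on the log2 scale, and reads shared between the copies could have been split by the authors' counting.

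MAVS, the adaptor that RIG-I and MDA5 share, lies on chromosome 20 from 3846799 to 3876123. It had 2861 and 3248 normalized counts in control and cGAMP cells of WT/HAQ, 3586 and 3330 in WT/-, and 3313 and 3435 in HAQ/-. All 6 libraries were within this narrow range and the groups overlapped. Its edgeR log2 fold change was 0.04 ± 0.08 (SE, adjusted p = 0.791), and the sign turned, to −0.027, without the WT/HAQ line.

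**Figure D2:**
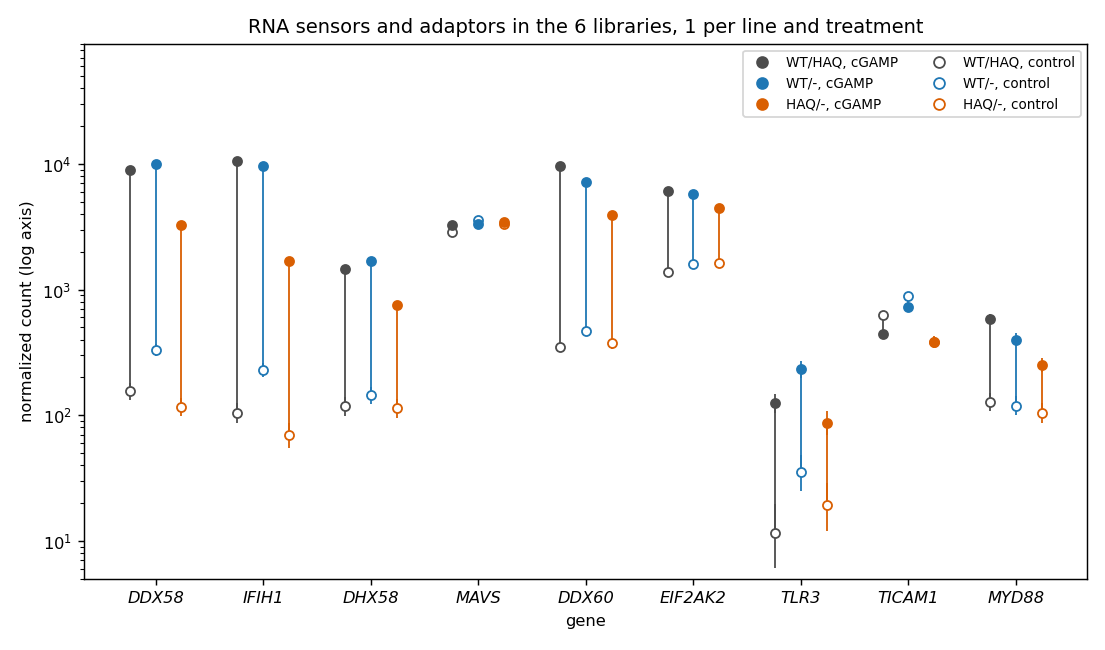
Normalized counts (log axis) of the 9 analysed genes in each library, with open points for control and filled points for cGAMP libraries, joined within a line and with 95% Poisson intervals. For 7 genes every filled point lies above every open point, and for MAVS and TICAM1 the groups overlap.

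The receptors were also compared with each other and with MAVS as levels per length (TPM, the share of all transcripts scaled to a fixed sum, with the union of annotated exons as length). In control cells MAVS had 61.6, 77.1 and 74.7 TPM in WT/HAQ, WT/- and HAQ/-, while RIG-I, MDA5 and LGP2 transcripts summed to 16.7, 28.7 and 14.5 TPM. With cGAMP the sums were 801, 779 and 221 TPM. Receptor transcripts per MAVS transcript were therefore 0.271, 0.373 and 0.194 without and 11.8, 11.5 and 2.87 with cGAMP, with HAQ/- lowest in both treatments. With the longest coding transcript as length, a setting added after the values were seen, these ratios were 0.435, 0.609 and 0.309 without and 19.2, 18.9 and 4.86 with cGAMP, again lowest in HAQ/-.

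The makeup of the receptor pool changed as well. DHX58 held the largest share in the control libraries of WT/HAQ (46.6%) and HAQ/- (54.8%), whereas in that of WT/- IFIH1 (38.5%) and DHX58 (33.3%) had overlapping counting intervals. With cGAMP, IFIH1 made up 61.6% of the sum in WT/HAQ and 57.0% in WT/-. In HAQ/- cells the shares were 38.6% for IFIH1, 37.8% for DDX58 and 23.5% for DHX58. The order of DDX58 and IFIH1 depended on the length: with the longest coding transcript DDX58 was first in the HAQ/- cGAMP library, with 46.4% against 33.1% for IFIH1, and in the WT/- control library, with 35.8% against 34.3%. IFIH1 stayed first after cGAMP in WT/- (50.5%) and WT/HAQ (55.2%), and DHX58 in the control libraries of WT/HAQ (42.8%) and HAQ/- (50.6%).

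**Figure D3:**
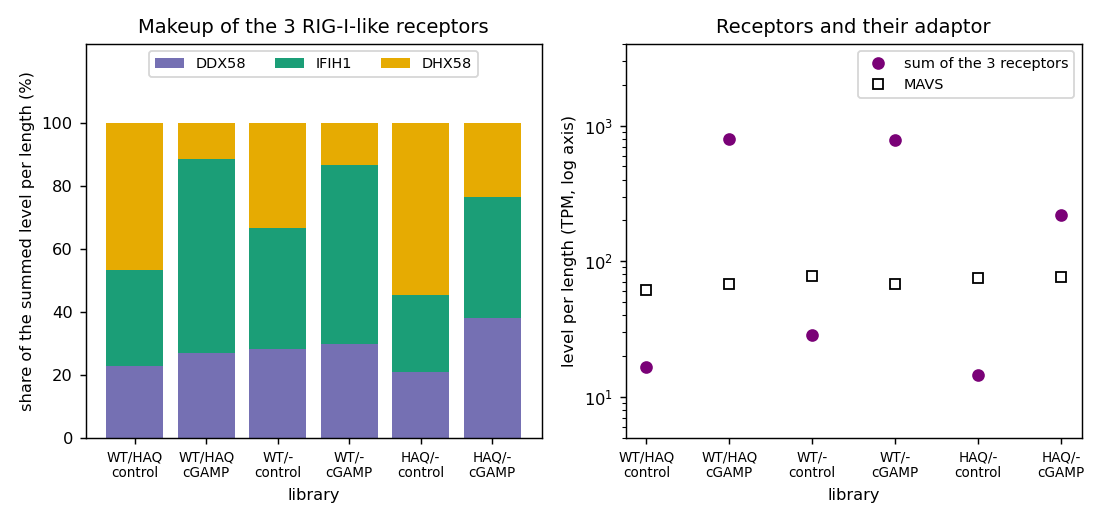
Left, share (%) of DDX58, IFIH1 and DHX58 in their summed level per length in each library. Right, that sum and the level of MAVS in TPM on a log axis. The sum lies below MAVS in the 3 control libraries and above it in the 3 cGAMP libraries, with HAQ/- at 221 TPM against 801 and 779 in the other lines.

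Over all 10 members, MAVS, TICAM1 and EIF2AK2 held the top places in the control libraries and TLR3 and ZBP1 the last. With cGAMP, IFIH1 was first and DDX58 second in both lines with a WT allele, whereas EIF2AK2 was first in HAQ/- with 106 TPM, ahead of IFIH1 with 85.2 and DDX58 with 83.5. The order depended on the length used, and 8 of the 10 members changed place in 1 or more libraries with the longest coding transcript. In the HAQ/- cGAMP library DDX58 was then first with 126 TPM, ahead of DDX60 (110.4) and IFIH1 (89.9), and EIF2AK2 was at place 4 with 83.6. Many neighbours in the order were not told apart: counting intervals overlapped for 13 of 24 neighbouring pairs in the control libraries, such as DDX60 and IFIH1 in WT/HAQ (5.12 and 5.10 TPM), and for 5 of 27 in the cGAMP libraries, among them IFIH1 and DDX58 in HAQ/-.

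EIF2AK2 encodes PKR (chromosome 2, 37099210 to 37157522) and already had a high level without cGAMP, at 1381, 1608 and 1627 normalized counts in WT/HAQ, WT/- and HAQ/-. After cGAMP the levels were 6134, 5715 and 4428. The change was smaller than for the helicases, 1.81 ± 0.15 on the log2 scale (SE, edgeR adjusted p = 0.00925), with folds of 4.44 (4.20 to 4.70), 3.55 (3.36 to 3.76) and 2.72 (2.58 to 2.87). EIF2AK2 overlaps GPATCH11 on the other strand and a pseudogene, and since the strand setting of the counting is not given in the sources used here, reads of overlapping exons could not be told apart. GPATCH11 itself was at −0.19, −0.42 and −0.62 log2 fold change.

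TLR3, the endosomal receptor of double-stranded RNA (chromosome 4, 186068911 to 186088073), had few reads. It had 13, 38 and 22 counts in the control libraries of WT/HAQ, WT/- and HAQ/- and 132, 174 and 80 with cGAMP. In normalized counts the groups did not overlap, at 11.5 to 35.5 without and 87.6 to 232 with cGAMP. TLR3 rose by 2.75 ± 0.27 on the log2 scale (SE, edgeR adjusted p = 0.0145). Its folds of 10.9 (6.22 to 19.2), 6.55 (4.62 to 9.29) and 4.56 (2.86 to 7.28) had overlapping counting intervals, and no difference between the lines was detectable at this depth other than between WT/HAQ and HAQ/-, at 1.26 (0.19 to 2.33).

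TICAM1, the adaptor of TLR3 (chromosome 19, 4815932 to 4831712), had 624 normalized counts in the control and 446 in the cGAMP library of WT/HAQ, 891 and 724 in WT/-, and 380.4 and 383 in HAQ/-. The line with the highest level was WT/- in both treatments, and control and cGAMP levels overlapped. Its log2 fold change was −0.26 ± 0.11 over the lines (SE, edgeR adjusted p = 0.223). Without the HAQ/- line it was −0.39 and passed, with an adjusted p of 0.0423. The edgeR test then called 2594 of all genes, against 489 with the 3 lines.

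MYD88, the adaptor of most Toll-like receptors and of the interleukin-1 receptor, lies on chromosome 3 from 38138552 to 38143024. In contrast to the other adaptors it rose, by 1.76 ± 0.19 on the log2 scale (SE, edgeR adjusted p = 0.0186). Control levels of 127, 119 and 105 normalized counts stood against 586, 401 and 252 after cGAMP in WT/HAQ, WT/- and HAQ/-. The groups did not overlap, and the cGAMP libraries were in the order of these lines.

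ZBP1 (chromosome 20, 57603846 to 57620576) had 0 counts in all 3 control libraries and 2, 8 and 2 counts with cGAMP in WT/HAQ, WT/- and HAQ/-. Only the WT/- library was above the floor of 3 counts per library, with a fold of 3.82 over its control held at this floor. The lower counting limit of the fold, from the raw counts of 8 and 0, was 2.98. In the other lines ZBP1 was not detectable above this floor. Of all analysed genes, 7.99% had the 3 cGAMP libraries above the 3 control libraries, as did 7 of the 9 analysed members.

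The 7 members that rose had their largest fold in WT/HAQ, the next in WT/- and the smallest in HAQ/-. This order was found in 18.1% of all genes, and in 50.9% of the 470 genes raised in every line. Since these members and genes share the libraries, the order is a description of 6 libraries and was not tested between lines. It rests on point values. The counting interval of the difference included 0 for DDX58 between WT/- and HAQ/-, and for DHX58 between WT/HAQ and WT/-. For TLR3 it included 0 in both of these pairs. The line with the most STING1 transcript also had the largest folds, and the level of STING1 and the allele cannot be told apart in these lines.

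The size of the difference depended on the gene. Between WT/HAQ and HAQ/-, the log2 fold change of IFIH1 differed by 2.04 (1.63 to 2.46), that of DDX60 by 1.39 (1.19 to 1.60) and that of EIF2AK2 by 0.71 (0.59 to 0.82). Between WT/- and HAQ/-, DHX58 differed by 0.82 (0.45 to 1.18), IFIH1 by 0.81 (0.44 to 1.18), DDX60 by 0.54 (0.35 to 0.74) and MYD88 by 0.48 (0.04 to 0.92). In this pair 7 of 9 members had the larger fold in WT/-, against 52.1% of all genes and 83.6% of the genes raised in every line. The counting interval of the difference excluded 0 for 5 of these 7, with DDX58 and TLR3 as the others. By a fold that was 1.5 times larger or more, 2 of 9 members were past it in WT/- over HAQ/- (11.9% of all genes) and 7 of 9 in WT/HAQ over HAQ/- (12.4%). Between WT/HAQ and WT/-, which both carry a WT allele, 8 of 9 members had the larger fold in WT/HAQ, against 45.6% of all genes and 65.7% of the genes raised in every line, and 4 of 9 were past this limit (8.58%). For IFIH1 the log2 difference of this pair was 1.23 (0.91 to 1.55), for DDX58 0.94 (0.67 to 1.203) and for DDX60 0.85 (0.66 to 1.05), each above the difference between WT/- and HAQ/-, as was that of TLR3 (0.74 against 0.52). For DHX58 (0.09 against 0.82), EIF2AK2 (0.32 against 0.39) and MYD88 (0.46 against 0.48) it was below. Among the members that rose, the counting intervals of these differences were apart only for DDX58 and DHX58, and overlapped for the others. Both differences also use the same WT/- libraries. The median difference over the 9 members was 0.46 for this pair and 0.48 between WT/- and HAQ/-.

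**Figure D4:**
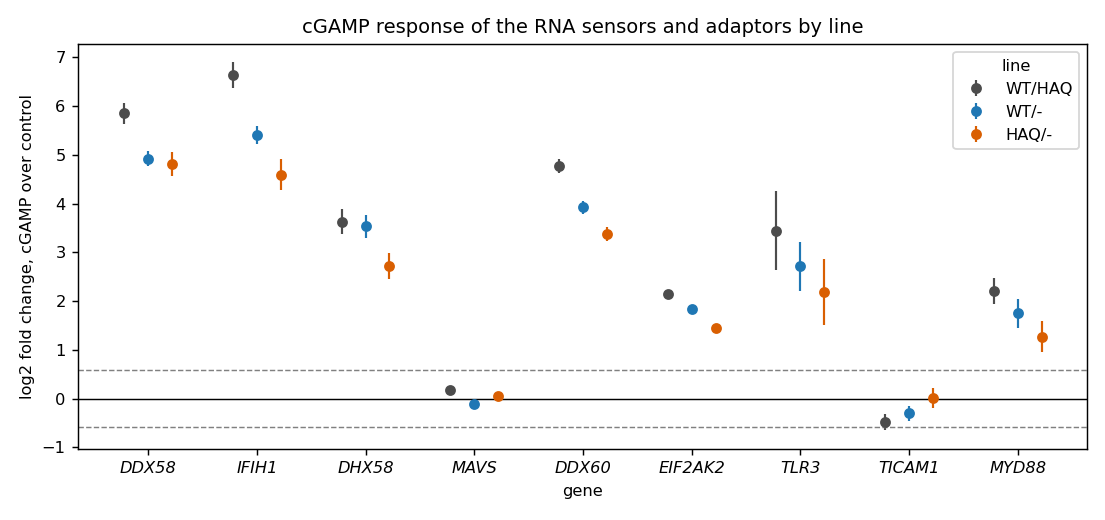
Log2 fold change of cGAMP over control for each gene and line, with 95% Wilson intervals that cover counting error only and dashed lines at a 1.5-fold change. By point value the 7 genes that rose are ordered WT/HAQ, WT/-, HAQ/- from the largest fold, with overlapping intervals for some. MAVS and TICAM1 lie between the dashed lines.

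Levels without cGAMP also differed between the lines. In the control libraries DDX58 was 2.12-fold (1.77 to 2.54), IFIH1 2.17-fold (1.75 to 2.70) and TLR3 3.09-fold (1.66 to 5.74) higher in WT/- than in WT/HAQ, 3 of 9 members (13.0% of all genes were higher by 1.5-fold). Against HAQ/-, 4 of 9 were higher in WT/- (15.3% of all genes): DDX58 2.83-fold, IFIH1 3.28-fold, TLR3 1.85-fold and TICAM1 2.34-fold. Between HAQ/- and WT/HAQ, 3 of 9 members were also 1.5-fold apart: IFIH1 (0.664-fold, 0.5003 to 0.880) and TICAM1 (0.610-fold, 0.541 to 0.687) were lower in HAQ/- (8.59%), and TLR3 was 1.67-fold higher (7.37%), with an interval that included 1 (0.852 to 3.27). With the size factors of DESeq2, IFIH1 was no longer 1.5-fold apart between these lines.

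In the cGAMP libraries 7 of 9 members were at least 1.5-fold higher in WT/- than in HAQ/- (19.0% of all genes), up to 5.75-fold (5.44 to 6.07) for IFIH1. Against WT/HAQ, 5 members were lower in HAQ/- (13.3%), namely DDX58, IFIH1, DHX58, DDX60 and MYD88. Of WT/- against WT/HAQ, 2 members were at least 1.5-fold apart, TLR3 and TICAM1, which were higher in WT/- (14.6%). The level in WT/- was 1.11-fold that in WT/HAQ for DDX58, 0.926-fold for IFIH1, 0.932-fold for EIF2AK2, 0.745-fold (0.720 to 0.770) for DDX60 and 0.683-fold (0.595 to 0.784) for MYD88. The smaller folds of DDX58 and IFIH1 in WT/- than in WT/HAQ went with higher control levels, while those in HAQ/- went with lower levels after cGAMP.

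Of the 58 analysed genes in 5 lists of regulators and partners of these sensors, 11 were called higher and 1 lower by the edgeR test, and 46 did not pass, beside 2.27% and 0.959% of all analysed genes called in the same directions. Among 14 regulators of RIG-I and MDA5, 3 rose and 0 fell by the edgeR test, with a median log2 fold change of −0.06, 0.02 and 0.03 in WT/HAQ, WT/- and HAQ/-. ZC3HAV1, which encodes the zinc-finger antiviral protein ZAP, had 621 normalized counts in the control and 30452 in the cGAMP library of WT/HAQ and rose by 5.08 ± 0.35 on the log2 scale over the lines (SE, adjusted p = 0.00668). TRIM38 rose by 1.32 ± 0.11 (adjusted p = 0.0104) and TRIM25, the ubiquitin ligase known to act on RIG-I, by 0.79 ± 0.08 (adjusted p = 0.0158). TRIM65, a ligase of MDA5, had the lowest mean fold of this list, at −0.32 ± 0.10 (adjusted p = 0.132).

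Of the 19 genes for signalling below MAVS, 1 rose and 1 fell, and the median log2 fold changes were −0.12, −0.07 and −0.03. IRF7, the interferon regulatory factor that is itself interferon-inducible, had 168, 294 and 147 normalized counts without and 1347, 1438 and 687 with cGAMP, a log2 change of 2.50 ± 0.17 (SE, edgeR adjusted p = 0.00700). IRF3, its constitutive relative, chosen after its values were seen, fell by 0.49 ± 0.08 on this scale (edgeR adjusted p = 0.0458). RIPK1, a kinase of inflammatory and death signalling, had 1352, 1418 and 1176 normalized counts without and 3832, 3295 and 1641 with cGAMP (adjusted p = 0.0630). The log2 fold changes of TAX1BP1 were 0.70, 0.62 and 0.12 (adjusted p = 0.105), and those of ITCH, a ligase that degrades MAVS, −0.96, −0.58 and −0.26 (adjusted p = 0.0832).

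Of 12 other proteins that bind double-stranded RNA, or act on what such proteins make, 5 rose and 0 fell, with medians of 0.96, 0.95 and 0.25 on the log2 scale. OASL rose by 7.52 ± 0.47 (edgeR adjusted p = 0.00585), OAS1 by 5.82 ± 0.42 (adjusted p = 0.00714) and OAS2 by 5.37 ± 0.57 (adjusted p = 0.0173) on the log2 scale. These genes make, or are related to those that make, the 2′-5′ oligoadenylates that activate RNase L. The remaining pair, OAS3 and ADAR, the RNA editing enzyme, was chosen after the values were seen and rose by 3.44 ± 0.24 and 0.86 ± 0.10 (adjusted p = 0.00708 and 0.0233). OAS1 and OAS2 had a smaller log2 fold change in WT/- (4.99 and 4.17) than in HAQ/- (5.70 and 5.32). OAS3 went the same way (3.03 and 3.19), with overlapping counting intervals. The 7 members that rose had the larger point value in WT/-, with a difference whose counting interval included 0 for DDX58 and TLR3. Control levels of OAS1 and OAS2, at 119 and 272 normalized counts in WT/-, stood above 34.0 and 75.0 in HAQ/-. EIF2S1, the translation factor that PKR phosphorylates, was lowest in this list at −0.16 ± 0.10 (adjusted p = 0.408).

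For the Toll-like receptors, 10 of 13 partner genes were analysed, of which 1 rose and 0 fell, with median log2 fold changes of 0.23, 0.15 and −0.05. UNC93B1, which carries the endosomal receptors to their compartment, rose by 0.50 ± 0.07 (log2, SE, edgeR adjusted p = 0.0411). PELI1 had fold changes of 0.25, 1.04 and −0.47 on the log2 scale in WT/HAQ, WT/- and HAQ/- (adjusted p = 0.555), TIRAP of 0.17, 0.46 and 0.17 (adjusted p = 0.440), and IRAK2, a kinase downstream of MYD88, of −1.47, −0.53 and −0.93 (adjusted p = 0.0639).

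Of the cell death partners of ZBP1 and TICAM1, 5 of 6 were analysed, with 1 rising and 0 falling and medians of 0.36, 0.66 and 0.16. MLKL, the pore-forming protein of necroptosis, rose by 1.33 ± 0.17 (log2, SE, edgeR adjusted p = 0.0268), with log2 fold changes of 1.54, 1.59 and 0.85. RIPK3, the kinase that activates MLKL, was the gene left out, with 1 count in the WT/HAQ cGAMP library and 0 in the others. CASP8 was at 0.39 ± 0.11 (adjusted p = 0.112) and FADD at −0.11 ± 0.11 (adjusted p = 0.563).

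**Figure D5:**
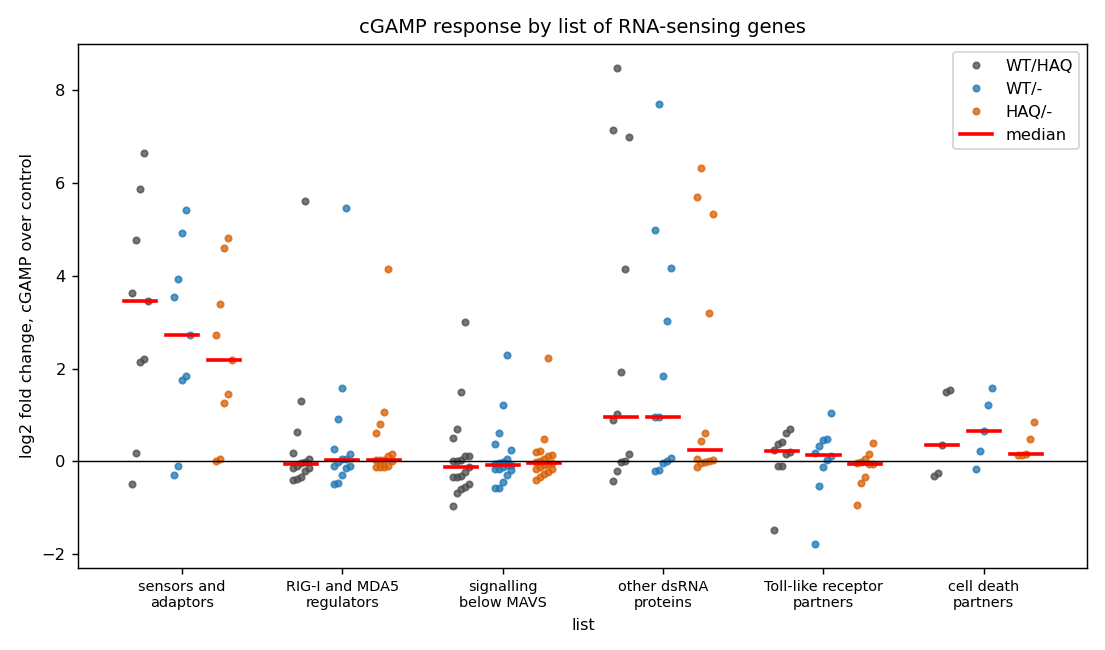
Log2 fold change of cGAMP over control for the analysed genes of 6 lists by line, 1 point per gene, with the median in red. The medians of the sensors and adaptors are 3.45, 2.71 and 2.19, those of the regulators and of signalling below MAVS lie near 0, and single genes such as ZC3HAV1 and OASL stand above.

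The genes with the most similar folds were found by the root mean square distance over the 3 log2 fold changes, among 14683 genes. CMPK2 was nearest to IFIH1 (0.14), with 6.50, 5.38 and 4.41 in WT/HAQ, WT/- and HAQ/-, and BATF2 was nearest to DDX58 (0.45). For DHX58 it was GBP1 (0.17), for DDX60 APOL6 (0.24), for TLR3 IFI27 (0.09), for EIF2AK2 UBE2L6 (0.06) and for MYD88 C19orf66 (0.08). The second nearest were BATF2 for IFIH1, USP18 for DDX58, ITGA2 for DHX58, APOL2 for DDX60, TRIM69 for TLR3, IFI35 for EIF2AK2 and MAST4 for MYD88. The distance took no account of counting error, which was wide for TLR3 (log2 fold change of 1.52 to 2.86 in HAQ/-). Genes at similar distances, such as APOL6 and APOL2 from DDX60 (0.24 and 0.25), were not told apart. A list of 38 ISGs used by the study, of which 4 are members (DDX60, DHX58, EIF2AK2 and IFIH1), had 35 genes called higher and 0 lower.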

How the data were processed

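RNA was measured as 1 TruSeq mRNA library per line and treatment (paired-end, NovaSeq). The authors deposited expected counts per Ensembl gene without normalization. The submitters' processing notes name STAR, RSEM and GRCh38 (hg38), whereas versions, annotation release and strand setting are not given in the sources used here. Counts were rounded, and genes with a mean of at least 10 were analysed (15126 of 60498). Library sizes were scaled by TMM, and normalized counts refer to the geometric mean of the effective sizes. Folds are cGAMP over control within a line after raising counts below 3 to 3, and the limit for raised genes was 1.5-fold. Intervals are 95% Wilson (ratios), exact Poisson (levels) or delta-method intervals (differences of folds) and cover counting error only. The treatment was tested with edgeR 4.0.16 (R 4.3.3) in a quasi-likelihood fit with the line as a block and 2 residual degrees of freedom. DESeq2 1.42.0 served as alternative. The labels pair the libraries by line, and deviations from the treatment means correlated within a line (r = 0.405, 0.697 and 0.531 over 15126 genes). The p-values measure the spread between 3 lines of different genotype, not between replicates.

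Positions and lengths are from GENCODE 44, promoter windows from RefSeq (GRCh38.p14). The fold within a line, the edgeR test with the line as a block and the motif search were tested on simulated data. Python 3.11.15 with numpy, pandas and matplotlib was used for the rest. Members and lists were chosen with earlier results of these data known. Named genes were the members, STING1, in each list except the ISGs the 3 with the largest and the 1 with the smallest mean log2 fold change, the 2 nearest patterns of each raised member, and copies or overlapping neighbours. Alternatives were DESeq2 size factors, total counts, thinning to the smallest total, a floor of 10, a prior count of 2, a mean count of 1 or 50, a fold of 2 or 1.2, no filter, no block, each line left out, another transcript length and 1 motif mismatch.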

Additional observations from a re-analysis of the deposited data

How the results depend on the processing

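The number of members raised in each line stayed at 7 under DESeq2 size factors, total counts, thinning, both floors, both fold limits and both filters, except for the 8 in WT/- when ZBP1 entered with a mean count of at least 1. The fold of each of the 9 analysed members in each line stayed within its counting interval under the 5 alternatives tried for it. The edgeR test over the lines depended more on the setting. Without the replicate block it called 4 members higher, and 57 genes higher and 4 lower. With no filter beyond 1 count it called 943 genes higher and 864 lower, and DESeq2 with the line as a block called 772 and 583, against 344 and 145 in the main test. With 1 line left out at a time, 0 to 7 members were called higher and 0 to 1 lower, and 0 to 1285 genes higher and 0 to 1309 lower: without WT/HAQ 136 and 50, without WT/- 0 and 0, without HAQ/- 1285 and 1309. The log2 fold change of MAVS then ran from −0.027, without WT/HAQ, to 0.13. With the longest coding transcript as length, 5 of the 10 members kept their place in both HAQ/- libraries and the WT/- control library, 6 in both WT/HAQ libraries and 8 in the WT/- cGAMP library. The cause of these shifts was not tested. With 1 library per line and treatment, differences between lines carry counting error only, and ZBP1 and TLR3 are limited by depth.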

Other observations

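The nearest analysed coding genes on either side of the 10 members, 20 genes in all, were looked at after the values had been seen, and 1 of them, DDX60L, was raised at least 1.5-fold in all 3 lines. GCA, a calcium-binding protein gene that starts 156 bases from IFIH1 on the other strand, was at 1.67, 1.73 and 0.12 log2 fold change in WT/HAQ, WT/- and HAQ/- and did not pass the test (edgeR adjusted p = 0.0987). The overlapping pair of ISRE matches, 159 to 144 bases before the IFIH1 start, reaches across the start of GCA.

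DICER1, the nuclease that processes double-stranded RNA, had 1498 and 5724 normalized counts without and with cGAMP in WT/HAQ, 1586 and 5674 in WT/-, and 1441 and 1469 in HAQ/-. It was also picked after its values were seen. The log2 fold changes were 1.93, 1.84 and 0.03, and the average response missed the threshold (edgeR adjusted p = 0.134). The difference between the lines was not tested.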
